A study of Mus musculus with 4 samples.

Results

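The genes examined here carry out or feed 2 linked steps of amino acid metabolism in muscle, the breakdown of the branched-chain amino acids (leucine, isoleucine and valine) and the making of glutamine. They were picked by name for these functions, at a time when earlier results of these data were known. The set has 10 of the 23282 gene rows of the files, namely Bcat2, Bckdha, Bckdhb, Bckdk, Slc7a5, Slc7a8, Slc3a2, Slc38a2, Slc1a5 and Glul, and every one of the 10 passed the minimum level in all 4 comparisons.

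The tissue was gastrocnemius, a calf muscle, of CDF1 mice, a hybrid laboratory strain, whose labels give postnatal day 28. By the methods this is about the age at purchase, and the muscle was taken later, at the end of the experiment. The methods state that the mice were male, that tumors were raised by tail vein injection of CT26 cells, a mouse colorectal carcinoma line, and that exercise was high-intensity treadmill running. The groups crossed these 2 factors: normal control had neither, normal exercise ran without a tumor, cancer control had a tumor without running, and cancer exercise had both. Each group had 1 library, and no genetic change was made in any group. The labels name 10 mice per group while the study's account of sequencing names a representative animal, so whether a library holds 1 animal or a pool was not settled. No difference below has a replicate check, and no p-value is given.

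Muscle is a main site where branched-chain amino acids lose their amino group. Bcat2, the mitochondrial branched-chain aminotransferase, moves that group to 2-oxoglutarate and yields glutamate and a keto acid. The branched-chain keto acid dehydrogenase complex then commits the keto acid to breakdown. Bckdha and Bckdhb encode the alpha and beta subunits of its E1 component, and Bckdk encodes the kinase that phosphorylates E1 and turns it off. Glul, glutamine synthetase, joins ammonia to glutamate, and muscle exports much of the glutamine used by other organs. Slc7a5 and Slc7a8 encode the large neutral amino acid transporters LAT1 and LAT2, which need the heavy chain encoded by Slc3a2 to reach the membrane. Slc38a2 (SNAT2) is a sodium-coupled carrier of small neutral amino acids, and Slc1a5 (ASCT2) exchanges glutamine and other neutral amino acids.

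In the GRCm38 (mm10) annotation, Bcat2 lies on the plus strand at chr7:45570153-45589711, Bckdk on the plus strand at chr7:127904082-127910221, and Slc1a5 on the plus strand at chr7:16781340-16798274. Bckdha lies on the minus strand of the same chromosome at chr7:25629946-25658981. Bckdhb (chr9:83925145-84124240) and Glul (chr1:153899944-153909723) are on plus strands. Slc7a5 (chr8:121881150-121907694), Slc7a8 (chr14:54722209-54781946), Slc3a2 (chr19:8706882-8723369) and Slc38a2 (chr15:96687392-96699730) are on minus strands. On the opposite strand, Bcat2 overlaps the antisense gene 0610005C13Rik, Bckdha overlaps B3gnt8, and Glul overlaps Teddm2. Whether strand was used in counting is not given in the sources used here, so reads of these pairs may not have been kept apart. Teddm2 was listed at 0 in all 4 libraries, B3gnt8 had 33.2 to 116 normalized reads, and 0610005C13Rik had 0.669 to 36.7.

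The promoters of Glul, Bckdhb and Slc7a8 are shown because these genes rose with the tumor in resting muscle and RefSeq gave a full stretch ahead of them that holds none of their own exons. They are the 150 bases before the start of each gene in GRCm38.p6, 5′ to 3′ on the gene's own strand, with each CCAAT box, read on either strand, in capitals. The Glul stretch is chr1:153899779-153899928 (plus strand), the Bckdhb stretch is chr9:83924987-83925136 (plus strand) and the Slc7a8 stretch is chr14:54781947-54782096 (minus strand).
Glul: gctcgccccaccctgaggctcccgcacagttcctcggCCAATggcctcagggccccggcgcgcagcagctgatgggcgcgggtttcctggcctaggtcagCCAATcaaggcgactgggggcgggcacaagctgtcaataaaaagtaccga
Bckdhb: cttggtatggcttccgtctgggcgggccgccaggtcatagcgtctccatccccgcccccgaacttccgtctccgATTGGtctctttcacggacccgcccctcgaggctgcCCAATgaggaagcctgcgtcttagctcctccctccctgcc
Slc7a8: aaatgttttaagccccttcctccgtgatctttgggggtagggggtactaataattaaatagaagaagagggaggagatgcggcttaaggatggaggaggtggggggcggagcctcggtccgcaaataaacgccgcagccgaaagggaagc
The 2 matches in Glul lie at −113 to −109 and −50 to −46 from the RefSeq start site, whose first base is 0. Those in Bckdhb lie at −76 to −72 and −40 to −36, the first of them on the minus strand. The Slc7a8 stretch held none. On the opposite strand, the Glul stretch overlaps a noncoding exon of Teddm2 and the Bckdhb stretch one of the noncoding gene Gm36278.

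Of the 10 genes, 8 had a RefSeq promoter entry, a window of 250 bases before to 50 bases after a start site. A gene can have several windows, as Bckdhb did. Members are counted by gene and the background by window, so these shares are not on the same footing. CCAAT (either strand) was found in 3 of these 8 genes, Bckdhb, Bckdk and Glul, and in 37.4% of all 32851 windows. TGTTCT, a site of the glucocorticoid receptor, was found in Bckdhb and Bckdk and in 19% of all windows. TATAAA, the letters of a TATA box, was found in 13.6% of all windows and in Bckdk. There it lay at −169 to −164 on the minus strand, opposite to the gene. The core of the amino acid response element bound by ATF4 (TGATGNAAT, in 0.965% of all windows), the forkhead site GTAAACA (3.65%) and the E-box CACGTG (7.15%) were found in none of the 8. No match of one motif overlapped a match of another in these genes, and a match or its absence describes the letters of these windows only.

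Each library had from 10647493 to 13225944 reads. Each deposited value is the log2 of 1 plus the gene's normalized read count. In 3′ sequencing a transcript gives reads from its 3′ end only, so that levels do not scale with gene length. A gene was called changed when it differed at least 2-fold on this scale and had at least 4 normalized reads in 1 of the 2 libraries. Whole reads were rebuilt from the steps in the deposited values, and each interval in square brackets is the 95% Clopper-Pearson interval of the log2 ratio of scaled reads, which covers counting error only. Cancer control stood apart from the rest in a few genes of other tissues. The summed level of 7 liver genes was 1908 normalized reads there and 144 to 520.2 in the other libraries, and that of 7 genes of the epidermis was 775 against 87.0 to 200.1. A few genes carried these sums: Fgb, a fibrinogen chain, had 959 normalized reads in cancer control and 7.14 to 40.2 elsewhere. The cornified layer genes Lor and Flg2 had 213 and 158 in cancer control and at most 4.4 in any other library. Both lists were added after these values were seen. Alb, the most abundant of the liver genes outside cancer control, had 373 normalized reads at rest and 100.3 with exercise in healthy mice, and 594 at rest and 77.0 with exercise in mice with a tumor. Further values of 4 libraries below keep this order of healthy mice at rest and exercised, then mice with a tumor at rest and exercised. The part of this RNA in the results was not tested.

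**Figure D1:**
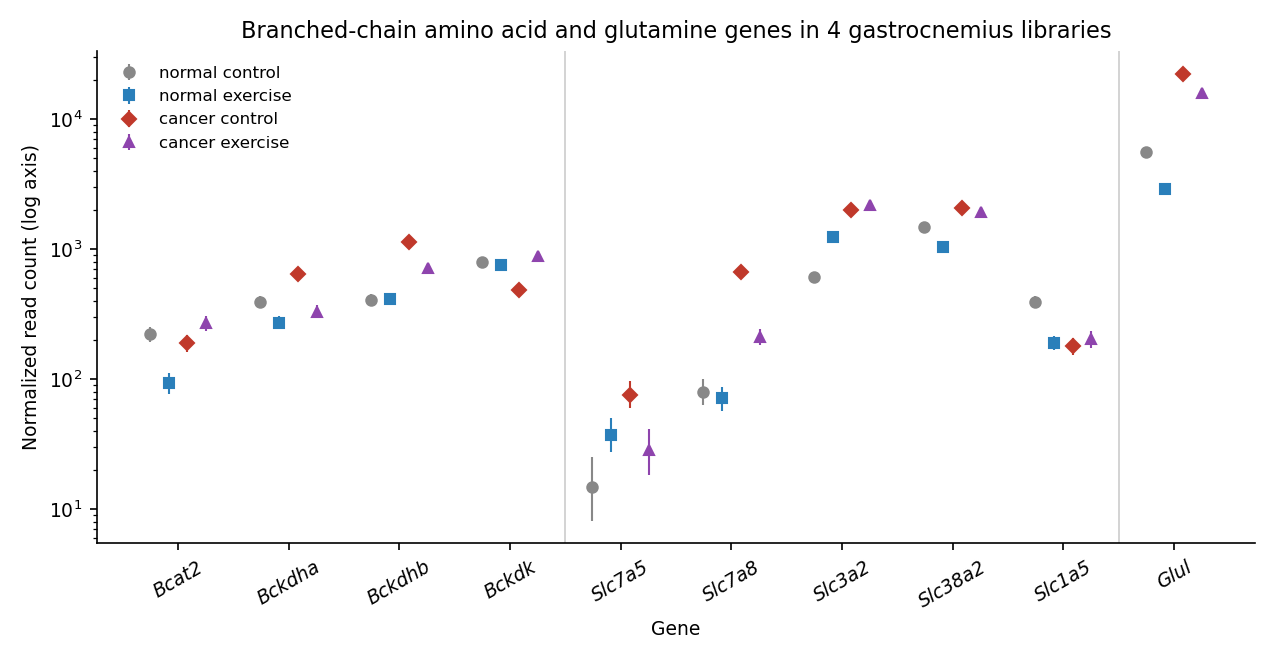
Normalized read count (log axis) of each of the 10 genes in the 4 libraries, 1 point per library, with bars for the exact 95% Poisson interval of its reads. Glul ranged from 2887 to 22226 and Slc7a8 from 71.2 to 665, both highest in cancer control, while Bckdk and Slc1a5 were lowest there.

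Bcat2 was low in one library only. Healthy mice had 220.2 normalized reads of it at rest (207 reads) and 93.1 with exercise (115 reads), and mice with a tumor had 188 at rest (176 reads) and 268 with exercise (248 reads). It fell 2.35-fold with exercise in healthy mice, a log2 difference of −1.23 [−1.58 to −0.90]. Cancer exercise was 2.86-fold above normal exercise, a log2 difference of 1.52 [1.20 to 1.86]. Between cancer control and normal control the log2 difference of −0.22 had an interval that included 0 [−0.52 to 0.07].

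Bckdha and Bckdhb, the subunits of E1, were both highest in cancer control. Bckdha had 394 normalized reads at rest and 272 with exercise in healthy mice, and 641 at rest and 329 with exercise in mice with a tumor. None of its differences in the 4 comparisons reached 2-fold. The log2 difference was 0.70 [0.52 to 0.90] between cancer control and normal control and −0.96 [−1.17 to −0.76] between cancer exercise and cancer control. Bckdhb had 407, 414, 1134 and 708 normalized reads in the same order. It rose 2.78-fold with the tumor without exercise, a log2 difference of 1.47 [1.31 to 1.65]. It was the only one of the 4 catabolic members that passed the 2-fold rule there. Normal control and normal exercise were not separated for Bckdhb, with a log2 difference of 0.02 [−0.17 to 0.22].

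Bckdk, the kinase that holds the complex off, went the other way. It had 790.3 normalized reads at rest and 753 with exercise in healthy mice, and 484 at rest and 885 with exercise in mice with a tumor, and none of its differences reached 2-fold. Cancer control was the lowest library, at a log2 difference of −0.71 [−0.88 to −0.54] from normal control, and cancer exercise stood 0.87 above cancer control [0.70 to 1.04]. The ratio of Bckdk to Bckdha within a library needs no scaling between libraries. From normal control to cancer control its log2 moved by −1.41, and from cancer control to cancer exercise by 1.83. It moved by 0.46 with exercise in healthy mice. The ratio of Bckdk to Bckdhb moved by −2.18 and 1.55 in the first 2 of these comparisons and by −0.09 in the third. These ratios concern transcripts, and neither phosphorylation nor enzyme activity was measured.

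Slc7a8 had the widest range of the 10 genes, 3.21 on the log2 scale. Healthy mice had 79.8 normalized reads of it at rest (75 reads) and 71.2 with exercise (88 reads), and mice with a tumor had 665 at rest (621 reads) and 212 with exercise (196 reads). The libraries without a tumor were not separated, with a log2 difference of −0.16 [−0.62 to 0.30], and both libraries with a tumor lay above them. It rose 8.24-fold with the tumor without exercise, a log2 difference of 3.04 [2.71 to 3.43]. Cancer exercise was 3.12-fold below cancer control, a log2 difference of −1.64 [−1.89 to −1.41], and was still 2.96-fold above normal exercise, a log2 difference of 1.56 [1.20 to 1.95].

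Slc7a5, the other light chain, was the rarest member. Healthy mice had 14 reads of it at rest and 46 with exercise, and mice with a tumor had 71 at rest and 26 with exercise, which are 14.9, 37.3, 76.0 and 28.2 normalized reads. Its log2 difference was 1.26 for exercise in healthy mice [0.44 to 2.30], 2.27 for the tumor at rest [1.51 to 3.29] and −1.40 for exercise in mice with a tumor [−2.14 to −0.77]. Cancer exercise could not be told from normal control or from normal exercise by counting error. The counts of this gene are low, and its intervals are the widest of the set.

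Slc3a2, the shared heavy chain, was lowest in normal control. It had 605 normalized reads there and 1227 in the exercised healthy library, and 1992 at rest and 2183 with exercise in mice with a tumor. It rose 2.03-fold with exercise in healthy mice, a log2 difference of 1.02 [0.88 to 1.16] that lies close to the 2-fold line, and 3.29-fold with the tumor, a log2 difference of 1.72 [1.58 to 1.86]. Both libraries with a tumor were similar for Slc3a2, with a log2 difference of 0.13 [0.04 to 0.22]. The light chains did not follow it there: the ratio of Slc7a8 to Slc3a2 moved by −1.77 and that of Slc7a5 to Slc3a2 by −1.53 on the log2 scale from cancer control to cancer exercise.

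Slc38a2 and Slc1a5 carry glutamine among other amino acids. Slc38a2 had 1479.6 normalized reads at rest and 1034 with exercise in healthy mice, and 2069.8 at rest and 1933 with exercise in mice with a tumor. It did not reach 2-fold in any comparison, and its largest log2 difference was 0.90 [0.80 to 1.01] between cancer exercise and normal exercise. Slc1a5 had 390.3, 189.7, 178 and 202 normalized reads in the same order. Normal control was the high library, and the other 3 lay within counting error of their neighbours. Slc1a5 fell with exercise in healthy mice, by a log2 difference of −1.04 [−1.28 to −0.80], and with the tumor at rest, by −1.13 [−1.41 to −0.87]. The former call was lost under total count scaling, where the difference was −0.88.

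Glul was the most read gene of the set in every library. Healthy mice had 5594 normalized reads of it at rest (5260 reads) and 2887 with exercise (3562 reads), and mice with a tumor had 22226 at rest (20754 reads) and 15726 with exercise (14521 reads). Both libraries with a tumor lay above both libraries without one. It rose 3.97-fold with the tumor without exercise, a log2 difference of 1.99 [1.95 to 2.03], and 5.45-fold with the tumor in exercised mice, a log2 difference of 2.45 [2.39 to 2.50]. With exercise the log2 difference was −0.95 [−1.02 to −0.89] in healthy mice, which is 1.94-fold and just short of the 2-fold rule, and −0.50 [−0.53 to −0.47] in tumor-bearing mice.

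**Figure D2:**
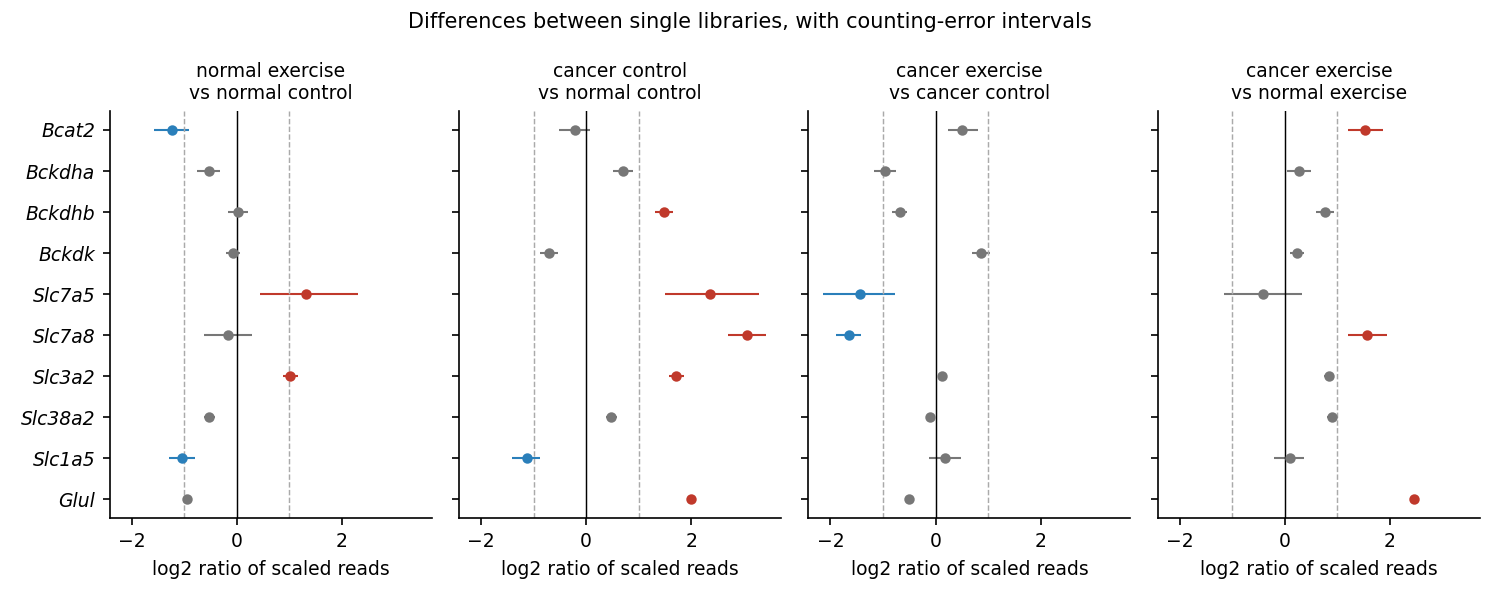
Log2 ratio of scaled reads of each of the 10 genes in the 4 comparisons, with 95% counting-error intervals; red points were called higher, blue points called lower, grey points not called, and dashed lines mark 2-fold. Slc7a8 and Slc7a5 lie furthest to the right between cancer control and normal control, and Glul between cancer exercise and normal exercise.

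The comparison of cancer control with normal control asked what the tumor does to resting muscle, and it called 6 of the 10 genes. Bckdhb, Slc7a5, Slc7a8, Slc3a2 and Glul rose and Slc1a5 fell. Over all 14818 genes that met the minimum, 20.9% were called higher and 24.2% lower. The median log2 difference was 1.09 for the 10 genes and −0.043 for all genes. Exercise in healthy mice called Slc7a5 and Slc3a2 higher and Bcat2 and Slc1a5 lower, against 9.44% of 14518 genes higher and 12.1% lower. That balance over all genes depended on scaling, with 43.9% of the called genes higher here and 52.9% under total count scaling. The medians were −0.34 for the 10 genes and −0.010 for all genes.

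The effect of exercise in tumor-bearing mice called Slc7a5 and Slc7a8 lower and no member higher, against 15.1% of 14491 genes lower and 15.6% higher. The medians were −0.30 for the 10 genes and 0.005 for all genes. Between cancer exercise and normal exercise, Bcat2, Slc7a8 and Glul were called higher and no member lower, against 13.9% of 14470 genes higher and 16.3% lower, with medians of 0.80 and −0.030. These 4 comparisons share libraries in pairs, so that 1 library moves 2 of them: a low Bcat2 in normal exercise, for example, enters both comparisons that use it.

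**Figure D3:**
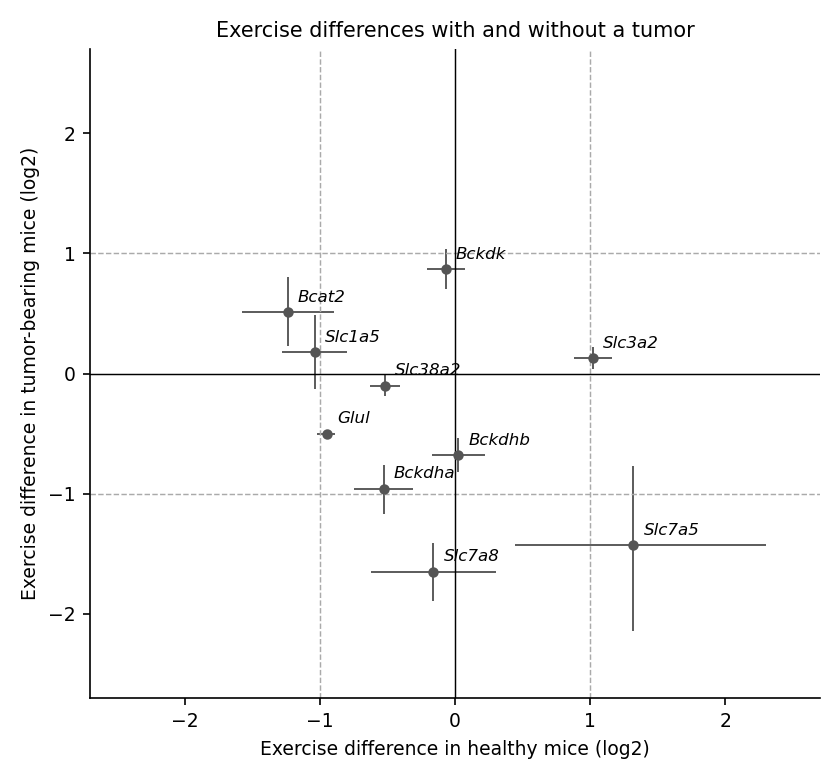
Log2 ratio of scaled reads with exercise against without it, in healthy mice (x axis) and in tumor-bearing mice (y axis), 1 point per gene with 95% counting-error intervals and dashed lines at 2-fold. Slc7a5 is the one gene past 2-fold on both axes, at opposite signs.

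Exercise differences in healthy and in tumor-bearing mice rest on separate pairs of libraries. The difference between them, tumor-bearing minus healthy, was −2.66 on the log2 scale for Slc7a5 and −1.48 for Slc7a8. It was 1.74 for Bcat2, which had a log2 difference of −1.23 in healthy and 0.51 in tumor-bearing mice, and 1.22 for Slc1a5. The remaining 6 members lay between −0.89 (Slc3a2) and 0.94 (Bckdk). Slc7a5 was the 1 member that passed 2-fold in opposite directions, as did 868 of the 15485 genes with at least 4 normalized reads in any library. None of these differences was tested.

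The other parts of the dehydrogenase and its control were read from a list of 5 genes. Dbt, the E2 core of the complex, had 417, 158, 352 and 335 normalized reads in the order of libraries given above. It fell with exercise in healthy mice, with a log2 difference of −1.40 [−1.65 to −1.15], and was 1.08 higher in cancer exercise than in normal exercise [0.82 to 1.35]. Ppm1k, the phosphatase that undoes the action of Bckdk, had 320.1, 126, 169 and 169 normalized reads and fell by 1.34 with exercise in healthy mice [−1.64 to −1.06]. Like Bcat2, both had their lowest level in normal exercise. Dld, the E3 subunit shared with other dehydrogenases, had 2409, 1675, 1668 and 2180.3 normalized reads and was not called in any comparison. Slc25a44, a mitochondrial carrier of branched-chain amino acids, was not called either, with 361, 444, 691 and 439.8. Bcat1, the cytosolic aminotransferase, had 3 to 12 reads, was called higher in both comparisons with the tumor and is named as the list's other called gene.

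Later steps of the breakdown of the 3 amino acids were covered by 17 genes. With the tumor in resting mice 2 were called higher and 3 lower, and the median log2 difference was −0.16. Over all genes these were 20.9%, 24.2% and −0.043. Among the lower genes were Mccc1 and Mccc2, the subunits of methylcrotonoyl-CoA carboxylase in the leucine branch, which fell by 1.92 [−2.31 to −1.57] and 1.25 [−1.90 to −0.69]. The 2 higher genes were Echs1, a mitochondrial enoyl-CoA hydratase, with a log2 difference of 1.39 [1.28 to 1.5], and Hsd17b10, a dehydrogenase of the isoleucine branch, with 1.02. From cancer control to cancer exercise 2 genes were called higher, among them Mccc1 with a log2 difference of 1.03 [0.64 to 1.46], and none was called lower. The shares of all genes there were 15.6% higher and 15.1% lower. With exercise in healthy mice 1 gene was called, Ivd, which fell by 1.10, and none was called between cancer exercise and normal exercise. Over all genes 9.44% were called higher and 12.1% lower in the former comparison, and 13.9% and 16.3% in the latter. Hsd17b10 and Ivd are named as called genes, outside the rule for naming.

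Use of glutamate and glutamine was covered by 14 genes, with 3 called higher and 3 lower with the tumor in resting mice. Over all genes these were 20.9% and 24.2%. Got1, the cytosolic aspartate aminotransferase, had 2909, 2305, 8634 and 3477 normalized reads. Its log2 difference was 1.57 for the tumor at rest [1.51 to 1.63] and −1.31 for exercise in mice with a tumor [−1.37 to −1.25]. Ppat, which spends glutamine on purine synthesis, had log2 differences of 1.08 and −1.49 in the same comparisons. Gfpt2, which spends it on hexosamines, had the reverse signs, with −1.30 for the tumor at rest and 1.76 for exercise in mice with a tumor. Aldh18a1, of proline synthesis, had 14, 7, 1 and 22 reads, and its log2 ratio of reads in cancer control to normal control was −3.80 [−9.20 to −1.08].

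Among 18 other amino acid transporters, 8 were called higher and 3 lower with the tumor in resting mice, and the median log2 difference was 0.41. Over all genes these were 20.9%, 24.2% and −0.043. Slc7a1, a carrier of cationic amino acids, had 39.4, 61.5, 213 and 95.3 normalized reads. Its log2 difference was 2.40 between the resting libraries [1.93 to 2.98] and −1.15 between those with a tumor [−1.54 to −0.79]. Slc7a6, another light chain of Slc3a2, rose by 2.41 with the tumor [1.78 to 3.21] and by 1.32 with exercise in healthy mice [0.65 to 2.14]. Slc7a2, a further cationic carrier, was high in cancer exercise alone, at 2318 normalized reads against 501 to 698 elsewhere. Slc7a11, the cystine light chain of Slc3a2, had 12, 7, 25 and 0 reads. With 0 reads set to the 3 reads that this depth can show, it was 8.24-fold lower in cancer exercise than in cancer control. The counting interval of this log2 ratio ends at −2.64, so a smaller fold is allowed.

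Leucine and arginine sensing and the mTORC1 complex were covered by 24 genes, of which 22 met the minimum in each comparison. With the tumor in resting mice 4 were called higher and 4 lower, against 20.9% and 24.2% of all genes. Sesn1, a sestrin that restrains mTORC1, had 140.4, 132, 3627 and 1312 normalized reads. Its log2 difference was 4.68 for the tumor at rest [4.44 to 4.95] and −1.47 for exercise in mice with a tumor [−1.56 to −1.37], and it was 3.30 higher in cancer exercise than in normal exercise [3.08 to 3.56]. Sesn2, a leucine sensor of this family, had 1, 0, 0 and 0 reads and could not be compared. Sesn3, another sestrin, was called lower for the tumor at rest (−2.19) and higher for exercise in mice with a tumor (2.28), opposite to Sesn1. It had 22, 49, 4 and 23 reads and was not called between cancer exercise and normal exercise.

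Mios, Seh1l, Sec13, Wdr24 and Wdr59 encode the parts of GATOR2, the complex that sestrins bind, and they did not move together. With the tumor in resting mice Mios was called higher, with a log2 difference of 1.12, and Sec13 and Seh1l had uncalled differences of 0.96 and 0.81. Mios, Sec13 and Seh1l are named here outside the rule. Wdr24 had a log2 difference of −1.73 for the tumor at rest [−2.77 to −0.92] and of 2.15 for exercise in mice with a tumor [1.38 to 3.18]. Wdr59 had 38, 55, 0 and 38 reads. With 0 reads set to 3, cancer control was 12.6-fold below normal control and cancer exercise was 12.8-fold above cancer control. The counting intervals of these log2 ratios end at −3.28 and 3.31, so smaller folds are allowed. Nprl2, part of the opposing GATOR1 complex, was lower in cancer exercise than in normal exercise, by a log2 difference of −1.63 [−2.07 to −1.24]. With exercise in healthy mice none of the 22 genes was called, against 9.44% of all genes higher and 12.1% lower.

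**Figure D4:**
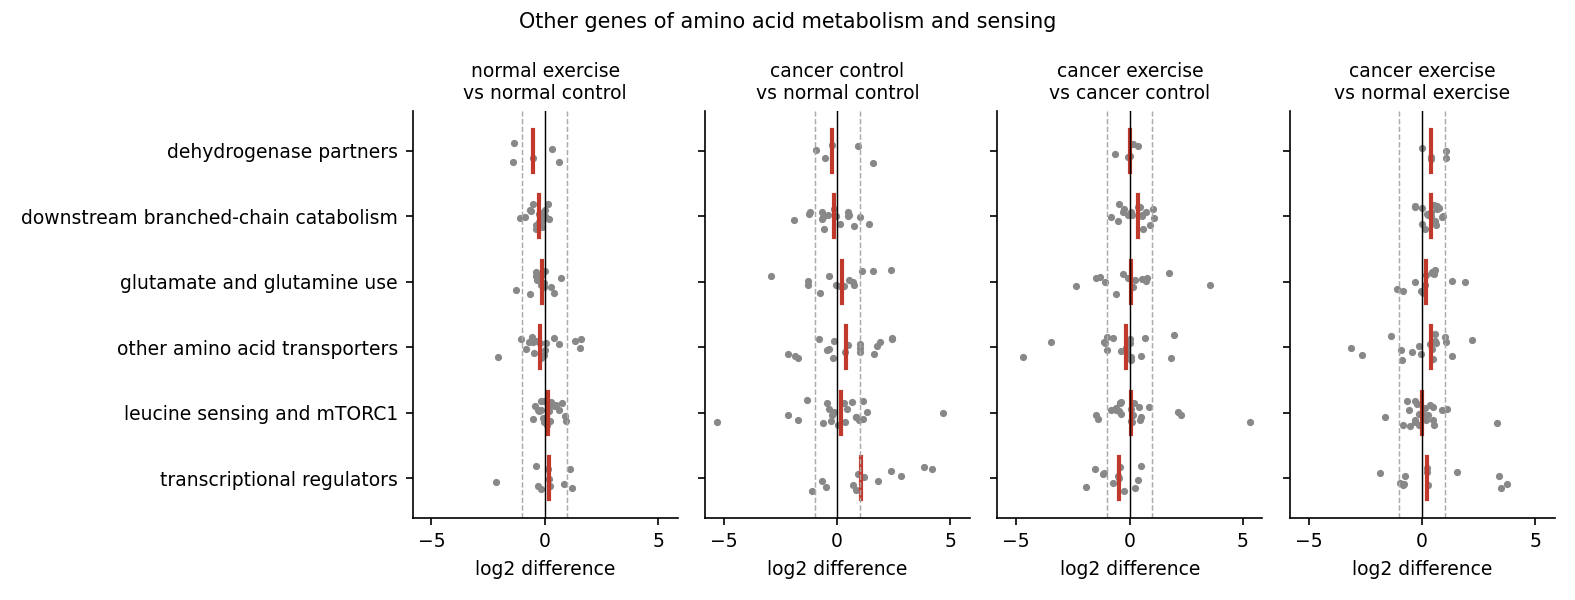
Log2 difference of the genes of 6 other lists in the 4 comparisons, 1 grey point per gene that met the minimum of 4 normalized reads in 1 of the 2 libraries; red bars are the list medians and dashed lines mark 2-fold. The median of the transcriptional regulators reached 1.05 between cancer control and normal control, and the medians of the other lists lay between −0.24 and 0.41 there.

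Regulators known to act on these genes were read from a list of 12. With the tumor in resting mice 6 were called higher and 1 lower, and the median log2 difference was 1.05, against 20.9%, 24.2% and −0.043 over all genes. Klf15, a factor known for driving amino acid breakdown in muscle, had 187 normalized reads at rest and 42.0 with exercise in healthy mice, and 1332 at rest and 586 with exercise in mice with a tumor. It was called in every comparison. It fell with exercise, by a log2 difference of −2.13 in healthy mice [−2.63 to −1.70] and of −1.18 in mice with a tumor [−1.33 to −1.04], and it rose with the tumor by 2.82 without exercise [2.60 to 3.07] and by 3.77 with it [3.38 to 4.24]. Normal exercise was its lowest library and cancer control its highest, as they were for Slc7a8, Glul, Bckdha and Slc38a2. The remaining members differed from it in the lowest library, the highest or both. For Slc7a8 the libraries without a tumor were not separated by counting error. The shared order was not tested.

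Foxo1, a forkhead factor of muscle wasting, had a log2 difference of 2.38 for the tumor at rest [2.25 to 2.51] and of −1.13 for exercise in mice with a tumor [−1.22 to −1.04]. Atf4, Atf5 and Trib3 belong to the amino acid stress response. Atf4, named here outside the rule, had 4254, 4989.6, 9680.4 and 5901 normalized reads. It was called only for the tumor at rest, higher by a log2 difference of 1.19. Atf5 rose by 1.10 with exercise in healthy mice [0.99 to 1.21] and fell by 1.13 with the tumor [−1.30 to −0.97]. For Trib3 the difference was 1.82 for the tumor at rest [1.12 to 2.69] and −1.94 for exercise in mice with a tumor [−2.86 to −1.22]. Myc had 1, 4, 35 and 41 reads, a log2 ratio of reads of 5.14 in cancer control to normal control [2.57 to 10.48].

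The genes whose 4 values ran closest to those of Slc7a8, among 9323 genes with a mean of at least 64 normalized reads, were Tbc1d15, Fah, Mafk, Calcoco1 and Errfi1. After each gene was centred over the 4 libraries, none of its values lay further from Slc7a8 than 0.053 on the log2 scale for Tbc1d15, 0.138 for Fah, 0.146 for Mafk, 0.159 for Calcoco1 and 0.170 for Errfi1. Tbc1d15, a regulator of the small GTPase Rab7, had 304, 263, 2593 and 818 normalized reads. Fah, the last enzyme of tyrosine breakdown, had 83.0, 83.3, 696 and 212. With 4 libraries a close pattern is easily met, and no test was made of it.

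Markers of the cells in the tissue also differed between libraries, and in bulk tissue fewer cells of a type and less RNA per cell cannot be told apart. All 8 skeletal muscle genes were read in every library. Their summed level was 1141542 normalized reads at rest and 874351 with exercise in healthy mice, and 619849 at rest and 679453 with exercise in mice with a tumor. The 8 genes did not move as one. Between cancer control and normal control 4 were called lower and 1 higher, against 24.2% and 20.9% of all genes. The sum fell mostly through Pvalb, the calcium buffer of fast fibers (246119 to 13539.6), and Acta1, muscle actin (347342 to 134849). Myh1, a fast myosin, rose from 7701 to 18989.6. Glul was highest in the library where the sum was lowest. The 6 fibroblast genes summed to 91453 in normal control and 36697 to 43468 elsewhere. Dcn made up most of this sum (57888 in normal control and 35363 in cancer control), while Col1a1 went from 9741 to 124. The 6 fat cell genes summed to 36636, 20129, 12422 and 25707, with 1 of them at 0 reads in each library with a tumor. Between cancer control and normal control 4 fibroblast genes and 6 fat cell genes were called lower, against 24.2% of all genes. Slc1a5, like the fibroblast and fat cell sums, was highest in normal control.

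The 10 macrophage genes, none at 0 reads in any library, summed to 4467, 4393, 7715 and 7185 normalized reads. In cancer control against normal control 6 of them lay above 0 and 4 below, and 5 were called higher, against 20.9% of all genes. C1qa rose most in reads (1132 to 2651) and Cd68 most in fold (92.6 to 1024). The 8 measured neutrophil genes summed to 80.0, 160.3, 2546 and 1695, with 3 or 4 of them at 0 reads, Elane in every library. In cancer control S100a8 (2054) and S100a9 (444) made up nearly all of this sum, and Mpo and Csf3r had 0 reads there. Both sums were higher in the libraries with a tumor, as were Glul, Slc7a8, Slc3a2, Bckdhb and Slc38a2. The 8 endothelial genes ran from 3329.6 to 4441 and were lowest in normal control. The 7 red cell genes summed to 249011, 51513, 235237 and 504624, with 1 at 0 reads in normal exercise and in cancer control. Bcat2 was also lowest in normal exercise and highest in cancer exercise. Between these libraries all 7 red cell genes were called higher with the tumor, against 13.9% of all genes. The 5 genes of simple epithelium summed to 44.4 to 119, with 1 or 2 at 0 reads. The part of these cells in the results was not tested.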

How the data were processed

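Gene expression was measured by 3′ mRNA sequencing (QuantSeq) in 4 libraries, grouped by their titles, 1 per group. The submitters' processing notes name Bowtie2, bedtools and the mm10 build, and the methods name quantile normalization with edgeR. The annotation and the handling of strand, duplicates and reads matching several genes are not given in the sources used here. The unit deposited by the authors is log2 of a normalized read count to which 1 was added, in 23282 rows (79 share a symbol with another row).

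The quantile adjustment was modelled with 1 scale per library and a negative binomial dispersion of 0.34, checked on simulated data, and whole reads were rebuilt. All values (100%) were whole within 0.0006 on the log2 scale, and 94.9% to 96.2% were tied to a single count. The remaining counts are approximate. The totals were 11269853, 13225944, 10647493 and 11026621 reads for healthy mice at rest and exercised and mice with a tumor at rest and exercised, and 3 reads, the floor, are 2.27e-05% to 2.82e-05% of them. Floors and intervals cover counting error only.

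Differences are those of the deposited values (pseudocount 1), which understate changes of low genes. A count test was not used, since 1 library per group allows no p-value. Python 3.11.15 with numpy 2.4.6, pandas 2.3.3 and scipy 1.17.1 was used. Symbols were matched to GENCODE M21 (GRCm38) for coordinates and to RefSeq for promoters.

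The genes, lists and call rule were chosen with earlier results of these data known. The rule named all 10 members, further genes including Dbt, Dld, Ppm1k, Slc25a44, Sesn1, Sesn2 and Klf15, up to 4 others per list with the largest difference among genes of at least 16 normalized reads, and the 5 closest to the member of widest range. Older symbols were used for Mmut, Castor1 and Lars1 (Mut, Gatsl3 and Lars), and Ly6g was not matched. Some genes that the rule named are not reported here. The alternatives were 3 scalings, pseudocounts of 0 and 4, other minimums, and folds of 1.5 and 4.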

Additional observations from a re-analysis of the deposited data

Results flagged for a closer look

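The exercise difference of Slc7a5 was opposite in sign and at least 2-fold in both pairs of libraries. On the log2 scale it was 1.26 [0.44 to 2.30] for healthy mice and −1.40 [−2.14 to −0.77] for those with a tumor, which are −2.66 apart. Both intervals reach below 2-fold. Healthy mice had 14 reads of this gene at rest and 46 with exercise, and mice with a tumor had 71 at rest and 26 with exercise. With 1 library per group the difference was not tested.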

How the results depend on the processing

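The number of genes called was 3121 for exercise in healthy mice, 6682 for the tumor in resting mice, 4437 for exercise in tumor-bearing mice and 4378 for the tumor in exercised mice. Across other settings it moved by over 1.5 times in these cases. A minimum of 16 normalized reads gave 1741 genes for exercise in healthy mice. A minimum of 4 in both libraries gave 1600, 2626 and 2642 genes for exercise in healthy mice, exercise in tumor-bearing mice and the tumor in exercised mice. A 1.5-fold rule gave 5508, 7175 and 7107 genes in these 3, and 5 and 6 of the 10 members in the latter pair. A 4-fold rule gave 1437, 3178, 2058 and 1951 genes and 0, 2, 0 and 1 members in the 4 comparisons in the order first given. These moves follow from the stricter or looser rules. Total count scaling turned the balance of calls to 1685 higher and 1502 lower for exercise in healthy mice (from 1371 and 1750) and to 2065 and 2344 for exercise in tumor-bearing mice (from 2255 and 2182). It moved the median of all genes by 0.16 for exercise in healthy mice and by −0.155 for the tumor in exercised mice. A log2 difference of a member counted as moved when it left its counting interval. For the differences between exercise differences no such interval is given, and a move of these may lie within counting error. Of the 250 values of single members, 16 moved, all under this scaling, and the other 234 did not. There Slc1a5 lost its call for exercise in healthy mice (−0.88), Bckdha gained one for exercise in tumor-bearing mice (−1.03), and 2 uncalled members changed sign, Bckdk for exercise in healthy mice (from −0.07 to 0.09) and Slc1a5 for the tumor in exercised mice (from 0.09 to −0.07). No paired analysis was possible because each group had 1 library, and no replicate could be left out. Depth limits Slc7a5 most, with 14 to 71 reads.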

Other observations

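Pycr1, which makes proline, had 0, 0, 4 and 0 reads in healthy mice at rest and exercised and mice with a tumor at rest and exercised, and Oat, the aminotransferase that links ornithine to glutamate, had 1503, 1534, 2156 and 2071 normalized reads. Ddit3, a factor of the stress response that also raises Trib3, had 459, 1049, 811 and 601 normalized reads and was called in 1 comparison, higher with exercise in healthy mice by 1.19 on the log2 scale. Eif2ak4, the kinase that senses uncharged tRNA, had 61.7, 68.9, 118 and 40.1 normalized reads and was called lower with exercise in tumor-bearing mice, by a log2 difference of −1.53. These genes were chosen after their values were seen.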
